A study of Mus musculus with 15 samples.

Results

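ES-only regions are stretches of open chromatin that the DNase-seq list of mouse embryonic stem (ES) cells holds and that none of the other 7 DNase-seq lists of the series touches. All 8 peak lists were joined where peaks touched or overlapped, which gave 237612 regions. ES cells had a peak in 93367 of them, and 36249 of these ES regions held no peak of another list. ES-only regions were thus 38.8% of the ES regions (Wilson 95% interval 38.5 to 39.1) and 15.3% of all regions. The other 57118 ES regions, called remaining ES regions here, are the comparison throughout. They carry a peak of at least 1 other list.

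DNase-seq finds chromatin that a nuclease can reach, which in most genomes means promoters, enhancers, insulators and other sites where proteins displace nucleosomes. ES cells are derived from the early embryo and renew themselves in culture while keeping the capacity to form all tissues of the body. As general background, many promoters are open in most cell types, whereas enhancers, which lie away from promoters, are more often open in few cell types. A region open in a single cell type is therefore a place to look for control elements of that cell type, although chromatin without a listed peak need not have been closed.

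The ES cells, titled JM8, were of strain C57BL/6J per the labels and were grown on gelatinized plates with neither feeder cells nor matrigel. The other lists came from cultured skin fibroblasts of adult C57BL/6J mice, from whole brain, heart, kidney and liver of adult C57BL/6J mice, and from preSertoli cells, the somatic support cells of the fetal testis, at embryonic stages E13.5 and E15.5. These were sorted from heterozygous male F1 embryos of C57BL/6J fathers with a Sox9-ECFP transgene and CD-1 mothers. Nuclei of preSertoli cells were digested by their own nucleases, whereas the other 6 cell types, ES cells included, followed the protocol with added DNase I. The series holds 15 samples, and each DNase-seq group is 1 library, so no p-value was computed and intervals cover counting error only. The whole tissues are mixtures of cell types, in which a site open in few cells may yield no peak. The sex, passage number and karyotype of the ES line are not given in the labels. The labelled cell type was not checked against marker genes, because no gene positions in mm9, the build of the files, were used here.

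ES cells had more regions of their own than any other list, in number and as a share. Single-list regions made up 20.7% of the regions of E13.5 preSertoli cells, 16.8% of those of E15.5 preSertoli cells, 24.3% in skin fibroblasts, 18.4% in brain, 19.0% in heart, 16.9% in kidney and 26.5% in liver. In length, too, the ES list came first, with 96536 peaks over 46.9 Mb against 62218 to 88107 peaks over 27.5 to 38.5 Mb elsewhere. With the same number of peaks taken from each list, the strongest 62218, the ES share was 30.4%, ahead of skin fibroblasts at 27.8% and liver at 26.6%. The lead of ES cells over these 2 lists was therefore narrower in that setting. Trimming the longer lists also removes weak peaks that touched regions of other lists. Skin fibroblasts kept all 62218 peaks, yet their single-list regions rose from 14138 to 16169. Of the 18453 ES-only regions in that setting, 16538 were also ES-only with all peaks. The 2 preSertoli lists come from 1 cell type, so a region they share counts as single-list for neither.

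The number of lists that shared an ES region formed a U shape. A total of 36249 ES regions had no partner, 9687 had 1, 7431 had 2, 5199 had 3, 4355 had 4, 4144 had 5, 5443 had 6, and 20859 were open in all 8 lists. ES-only and universally open regions were the most frequent kinds, and regions shared with an intermediate number of lists were fewer. Height rose with sharing: the median percentile of signal height within the ES list was 32.3 for ES-only regions, 40.2 with 1 other list, 51.1 with 3, 60.1 with 6 and 86.3 with all 7. Between 4 and 5 other lists the median was level, at 56.1 and 55.9. Width followed the same course at the ends, with a median of 253 bp in ES-only regions, 307 bp with 1 other list and 832 bp in regions open in all 8 lists.

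**Figure D1:**
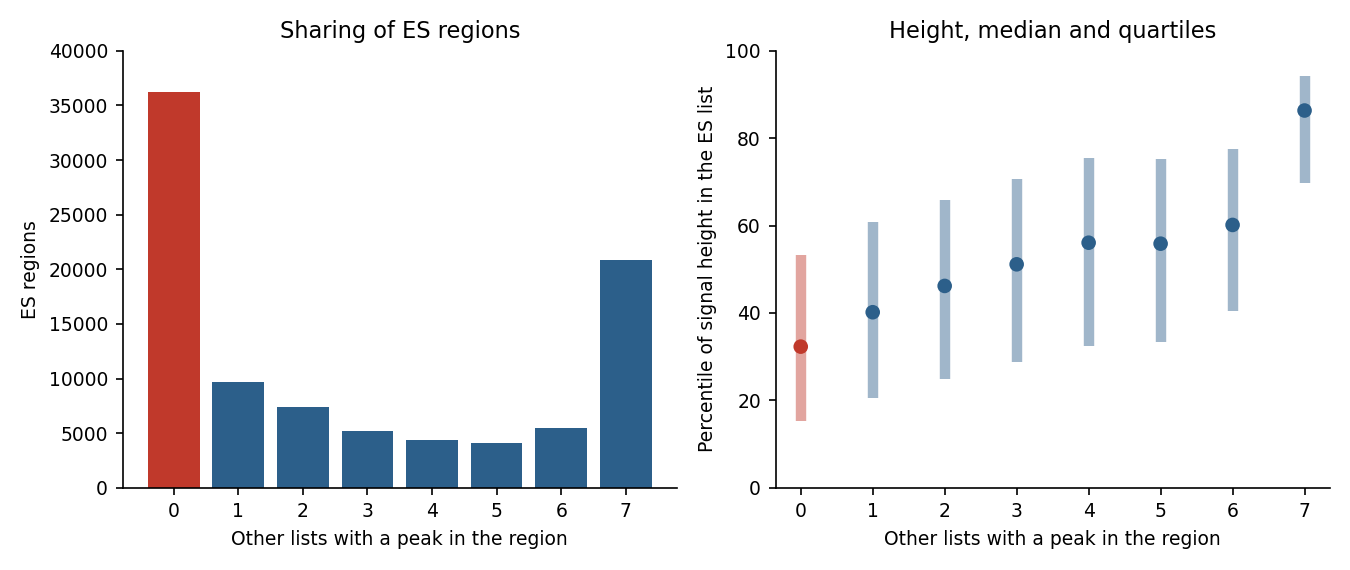
The left panel counts ES regions by the number of other DNase lists with a peak in the region, and the right panel gives the percentile of signal height in the ES list (points are medians, bars run from the lower to the upper quartile). The bars at 0 and 7 other lists are the tallest, at 36249 and 20859 regions, and the median height goes from 32.3 to 86.3 between them.

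ES-only regions were low and narrow peaks. The authors' signal height (seventh column of the deposited lists) had a median of 0.0736 in ES-only regions, with quartiles of 0.0590 and 0.106, against 0.136 in remaining ES regions, with quartiles of 0.0810 and 0.272. The middle ranges of the 2 classes overlapped between 0.0810 and 0.106. Expressed as a percentile of the ES list, the median was 32.3 against 64.1. The authors' −log10 p showed the same order, with a median of 1.81 against 3.14. Of the ES-only regions, 59.2% lay below a −log10 p of 2, not far above the lowest listed value of 1.3, compared with 25.6% of the remaining ES regions. Median width was 253 bp (quartiles 161 and 382) against 452 bp (quartiles 278 and 856). ES-only regions held 22.8% of the length covered by ES peaks, below their 38.8% share of regions. A wide peak has more bases that another list can touch, so width enters the definition of the class itself.

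The ES-only share fell at each step of signal height. In the lowest 10% of the ES list, 67.0% of regions (6114 of 9128) were ES-only. In the tenth from 40 to 50% the share was 44.2%, from 70 to 80% it was 24.8%, and from 80 to 90% it was 14.2%. In the highest 10% only 163 of 9605 regions were ES-only, a share of 1.70% (Wilson 1.46 to 1.98), while 87.0% of that tier was open in all 8 lists. Within this tier the share went on falling, from 5.30% between the 90th and 92nd percentiles to 0.104% (2 of 1931 regions) above the 98th. The strongest ES-only region stood below 1518 ES peaks, which by definition lie in regions shared with another list.

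At equal height, ES-only and remaining regions were equally wide over most of the range. In the lowest 10% of heights the median widths were 92 and 93 bp, between 30 and 40% they were 258 and 251 bp, and between 60 and 70% they were 425 and 420 bp. In the 7 bins up to the 70th percentile the medians differed by at most 7 bp. The classes parted only above the 70th percentile, where ES-only regions were narrower: 494 against 549 bp in the next bin, 606 against 815 bp in the one after, and 714 against 1179 bp in the highest. Regions with a summed ES peak width of 1000 bp or more were 0.775% of ES-only regions (281) and 19.2% of remaining ES regions (10987). More than 1 ES peak was summed in 2709 remaining ES regions and in no ES-only region. The widest ES-only peak measured 2170 bp. Conversely, at summed widths of 251 to 400 bp, ES-only regions had a median height percentile of 45.6 and remaining regions of 52.1. That gap was smaller than the 31.8 points between the classes as a whole. The gap was larger in wide regions. ES-only minus remaining was -1.08 points up to 150 bp, -9.78 from 601 to 1000 bp and -14.2 above that.

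**Figure D2:**
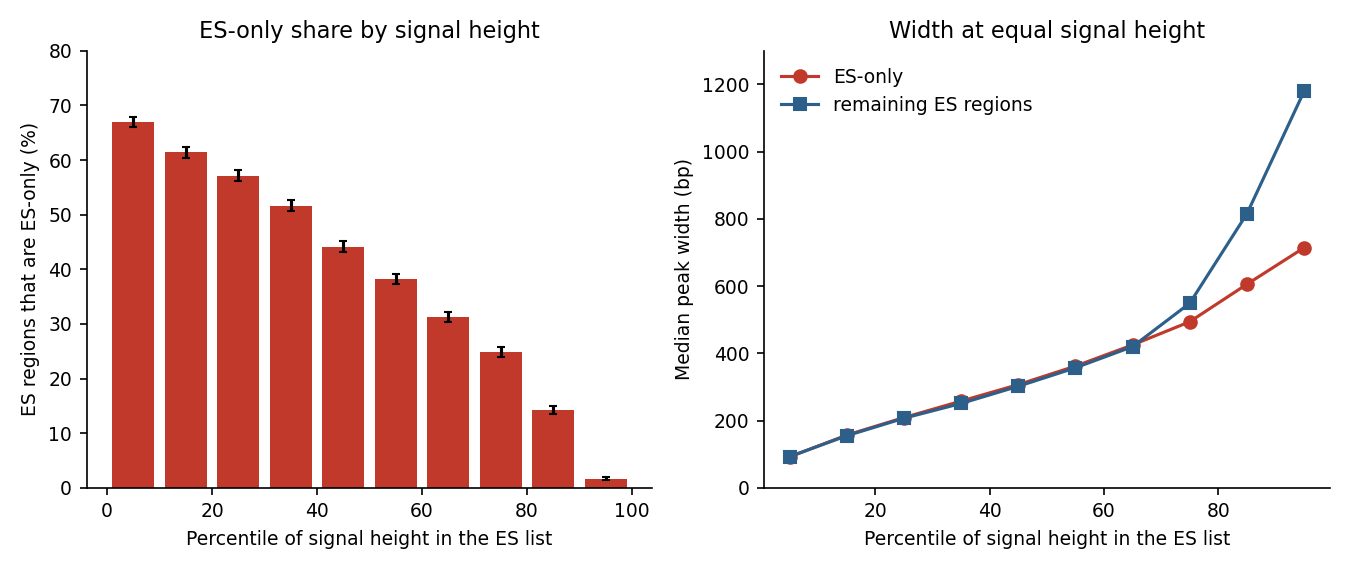
The left panel shows the percentage of ES regions that were ES-only in each 10% bin of signal height in the ES list (error bars are Wilson 95% intervals). The right panel gives the median summed ES peak width in bp of ES-only and remaining regions in the same bins. The share drops from 67.0% to 1.70%, and the width curves coincide up to the 70th percentile and then part, to 714 and 1179 bp.

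The single-list regions of ES cells and liver had the highest median percentiles of the 8 lists. In ES cells the median percentile of 32.3 was below that of liver (34.6) and above those of skin fibroblasts (28.3), kidney (27.4), brain (27.3), heart (24.9) and the preSertoli lists (22.5 at E13.5, 19.6 at E15.5). Single-list regions reached the top 10% of their own list 163 times in ES cells (0.450%) and 85 times in liver (0.466%), but 5 times in skin fibroblasts, 2 times in E13.5 preSertoli cells, 1 time in kidney and not at all in brain, heart and E15.5 preSertoli cells. A −log10 p of 3 or more was reached by 16.9% of the single-list regions in ES cells and by 26.4% in liver. The median width of 253 bp was likewise second to liver, at 266 bp.

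The strongest ES-only region lay on chromosome 15 from 100739143 to 100739778, with a signal height of 0.7305 and a width of 636 bp. It ranked 1519 of 96536 ES peaks. Next to it, 0.364 kb away, was a region open in ES cells, both preSertoli lists and brain, so the strongest ES-only region was one part of a larger open locus. The second, on chromosome 8 from 44392127 to 44392886, had a height of 0.7282 and stood apart: the nearest region of another list was 28.1 kb away and was seen in E13.5 preSertoli cells alone. Its 100 kb window held 9 ES-only regions and no remaining ES region. The third, on chromosome 14 from 57021161 to 57021937, had a height of 0.6965 and lay 3.99 kb from a region open in ES cells and 5 other lists.

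Places 4 and 5 were again on chromosome 8. The region from 60211240 to 60212212 had a height of 0.6881 and lay 7.85 kb from a region shared by ES cells and brain. The region from 113024067 to 113024697 had a height of 0.6806 and lay 7.71 kb from a region of the heart list. Place 6, on chromosome 11 from 112362964 to 112363674 (height 0.6621), was the only ES region of its window and had its nearest neighbour of another list 12.3 kb away. These 3 regions were 973, 631 and 711 bp wide.

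The list of 10 was completed by regions within 0.6 kb of a peak of another list. On chromosome 3 these were 108236207 to 108237158 (height 0.6431, 0.508 kb from a brain peak) and 41358986 to 41359963 (height 0.5956, 0.258 kb from a region of ES cells, E15.5 preSertoli cells and skin fibroblasts). On chromosome 1 the region from 194621010 to 194621706 had a height of 0.6223. On chromosome 11 the region from 100123078 to 100124149 had a height of 0.5913 and shared its window with 13 other ES-only regions and 12 remaining ones. Of the 10, 8 had a peak of another list within 10 kb, near the 81.3% of all ES-only regions. None overlapped an H3K27ac domain of E13.5 preSertoli cells, where 6.56% of all ES-only regions did, so 10 regions are too few to tell a difference. Genes at these positions were not analysed here.

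The strongest remaining ES regions were of another kind. Among the top 20, 19 were open in all 8 lists, heights ran from 1.08 to 1.63 and the median width was 1511 bp (780 to 15173). The top 20 ES-only regions had heights from 0.535 to 0.731 and a median width of 769 bp (591 to 1289). The 2 sets did not overlap in height, while their widths did. Both sets were picked by height, and 1518 ES peaks stood above the strongest ES-only region. The separation in height therefore follows from the choice and adds no further result.

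**Figure D3:**
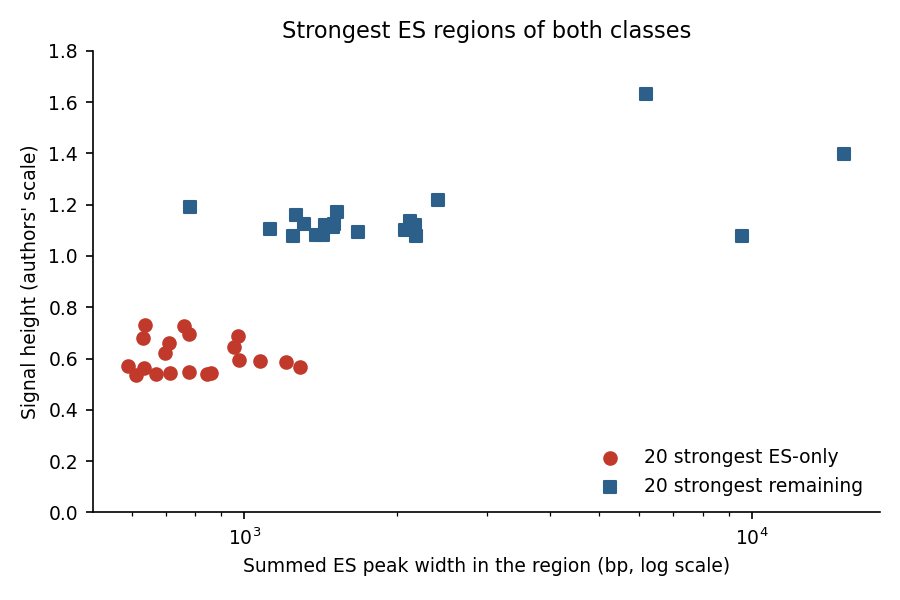
Signal height on the authors' scale against the summed width of ES peaks in the region (bp, log axis) for the 20 strongest ES-only and the 20 strongest remaining ES regions. The ES-only points sit between 0.535 and 0.731 and the remaining ones between 1.08 and 1.63, with no overlap in height, by which both sets were picked.

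ES-only regions were spread widely and crowded together in places. They occurred in 13970 of the 21006 windows of 100 kb that held any region, and remaining ES regions occurred in 14456. Both classes were present in 10795 windows. The number of ES-only regions in a window rose with the number of remaining ES regions there, from a mean of 0.757 in windows with none to 2.24 with 3 or 4 and 4.05 with 12 or more. Windows with 5 or more ES-only regions, called dense windows here, numbered 2040 and held 37.0% of all ES-only regions. The same count of remaining ES regions was reached in 4532 windows, with 63.9% of that class. Remaining ES regions were also more numerous, with a mean of 2.72 per window against 1.73, so a fixed count is reached more readily.

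Crowding differed between lists. A list with more single-list regions reaches a count of 5 more readily, and ES cells had the most. Dense windows of a list's own single-list regions held 24.5% of these regions in liver, 20.3% in E15.5 preSertoli cells, 14.7% in heart, 13.3% in brain, 11.6% in kidney, 9.64% in E13.5 preSertoli cells and 9.63% in skin fibroblasts. With equal numbers of peaks the ES value was 14.9%, below liver at 20.6% and brain at 15.4%. ES cells still had the most single-list regions there, 18453 against 8487 to 16169. With the strongest peaks in equal number, ES cells were thus not the most crowded list. That setting changes both the number and the strength of the peaks used, and their parts in the fall were not tested.

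The densest window lay on chromosome 15 from 96000001 to 96100000, with 18 ES-only regions beside 6 remaining ES regions. Their height percentiles ran from 1.38 to 79.4 with a median of 41.2, and the most single-list regions that another list had there was 1. Windows on chromosome 8 from 94500001 to 94600000 and from 37600001 to 37700000 held 16 each. The latter also held 5 regions found in heart alone, so it was not rich in ES cells only. The window on chromosome 14 from 99700001 to 99800000 held 15 ES-only regions and not one remaining ES region, with a median height percentile of 59.0 and a best height of 0.4136. The last of the 5, on chromosome 11 from 117400001 to 117500000, held 15 beside 8 remaining regions. Dense windows without any remaining ES region numbered 82, and the median dense window held 6 remaining ES regions.

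Some dense windows lay side by side in runs. The longest runs covered 7 windows each, on chromosome 1 from 158300001 to 159000000 with 49 ES-only and 34 remaining regions, and on chromosome 14 from 76400001 to 77100000 with 42 and 40. A run of 6 windows on chromosome 11 from 106800001 to 107400000 held 52 ES-only and 46 remaining regions. Other runs of 6 windows lay on chromosomes 11 and 8. All of these runs were on chromosomes 1, 8, 11 and 14, whose ES heights are described below. Runs of other lists or of remaining regions are not given for comparison. Most runs were short, since 1068 of 1457 consisted of a single dense window and 120 reached 3 or more.

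**Figure D4:**
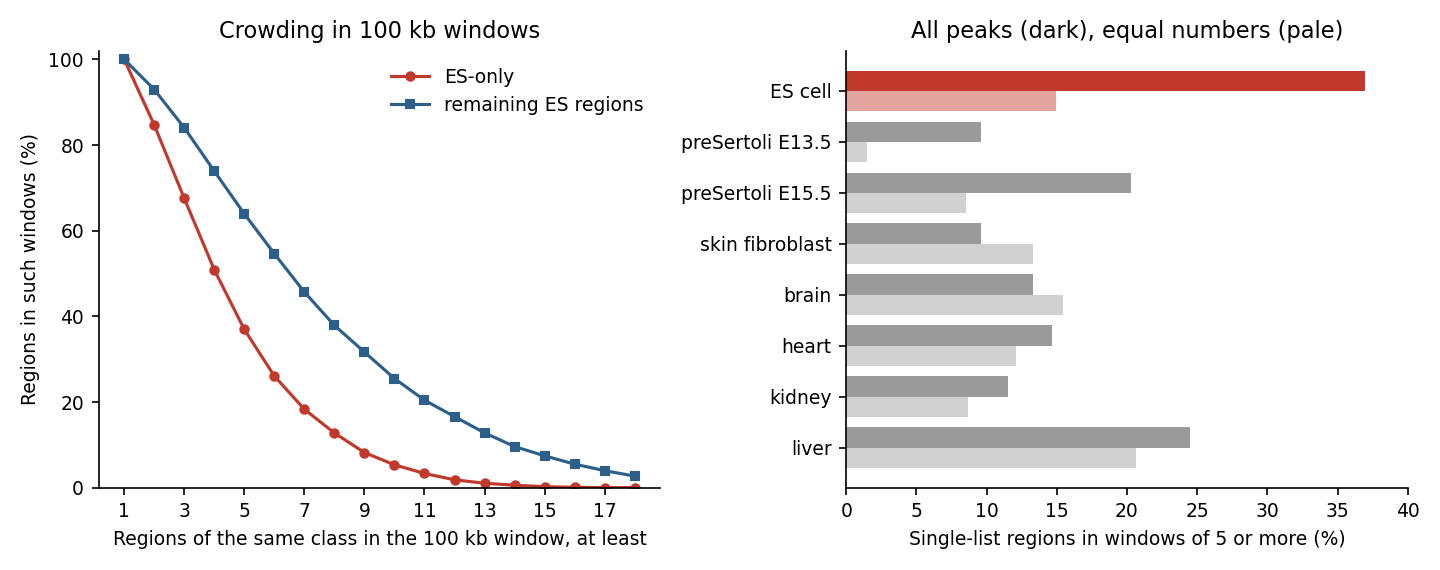
The left panel gives the percentage of ES-only and of remaining ES regions that lie in 100 kb windows with at least the stated number of regions of their class, and the right panel gives the percentage of each list's single-list regions in windows with 5 or more, for all peaks (dark) and for equal numbers of peaks (pale). The ES bar falls from 37.0% to 14.9%, under the pale liver bar at 20.6%.

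Along the genome, some ES-only regions followed each other with no region of any other list between them. A region of another list lay on both sides of 55.3% of ES-only regions. In the other lists this share of single-list regions ran from 61.7% in liver to 81.2% in E15.5 preSertoli cells. Unbroken strings of 5 or more held 1831 ES-only regions (5.05%), compared with 3.38% of single-list regions in liver, 1.87% in brain and 0.232% in E15.5 preSertoli cells. A list with more single-list regions forms strings more readily, and ES cells had 36249 against 10994 to 18221 elsewhere. Strings were not computed with equal numbers of peaks. The longest ES string comprised 19 regions over 180 kb on chromosome 18 from 37424482 to 37604344, and strings of 13 lay on either side of it, from 37099016 to 37170392 and from 37609350 to 37798485. Peaks were weak where the longest string and the one after it meet. The window there, from 37600001 to 37700000, held 14 ES-only regions with a median height percentile of 17.7 and a best height of 0.1007. Another of 16 regions spanned 669 kb on chromosome 13 from 66300607 to 66969815. On chromosome 8 from 91467961 to 91526621, 16 ES-only regions fell within 58.7 kb. The string of 12 on chromosome 14 from 99712153 to 99766631, over 54.5 kb, lay inside the window without remaining regions described above. Liver had a longer string, of 25 regions, and skin fibroblasts reached 15.

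ES-only regions lay farther from open chromatin of other cells than remaining ES regions did. The median gap to the nearest region of another list was 2.35 kb, against 1.29 kb from a remaining ES region to its nearest such neighbour. A neighbour within 1 kb was found for 30.7% of ES-only regions and 44.6% of remaining ones, and 2.43% against 0.448% had none within 100 kb. From regions open in all 8 lists, ES-only regions lay a median of 25.9 kb away, and ES regions shared with 1 to 6 other lists 17.8 kb.

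Chromosomes differed in their ES-only share. It was highest on chromosome 1 (46.7%, Wilson 45.6 to 47.9), chromosome 14 (44.9%, 43.3 to 46.5) and chromosome 8 (44.5%, 43.3 to 45.7). The next was chromosome 18 at 40.9%, the median of the autosomes was 38.9% and the lowest share was 33.3%, on chromosome 7. The intervals of the leading 3 chromosomes lay above those of all other chromosomes. In the other 7 lists the highest single-list share that one of them had on chromosome 8 was 26.2%. Per Mb, chromosome 11 had the most ES-only regions (24.5), followed by chromosome 8 (22.5), but chromosome 11 also had the most remaining ones (41.9), and its share of 36.9% was below the median.

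Chromosomes 1, 8 and 14, and with them chromosome 11, also differed from the other lists in the height of regions that every list shared. Height at the 20859 regions open in all 8 lists was taken on a log2 scale relative to each list's own median. On chromosome 8 the ES median was 0.33 above, a 1.26-fold height, and the other 7 lists ranged from -0.02 to 0.06. On chromosomes 11, 14 and 1 the ES medians were 0.16, 0.13 and 0.13, and the highest of the other lists were 0.10, 0.03 and -0.02. These 4 were the only chromosomes on which ES cells exceeded all 7 other lists. Heights are relative to the median of each list, so a rise on some chromosomes goes with a fall on others, and on chromosomes 2, 7, 10, 15, 18 and 19 the ES median lay below all 7 other lists. The lowest was chromosome 10 at -0.15, where the lowest of the other lists was -0.08. On chromosome 8 the ES median was the highest in 10 of 12 stretches of 10 Mb, on chromosome 1 in 9 of 17, on chromosome 11 in 6 of 13 and on chromosome 14 in 4 of 10. Such stretches also occurred elsewhere. Their number ran from 0 of 14 on chromosome 7 to 4 of 14 on each of chromosomes 4 and 5.

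**Figure D5:**
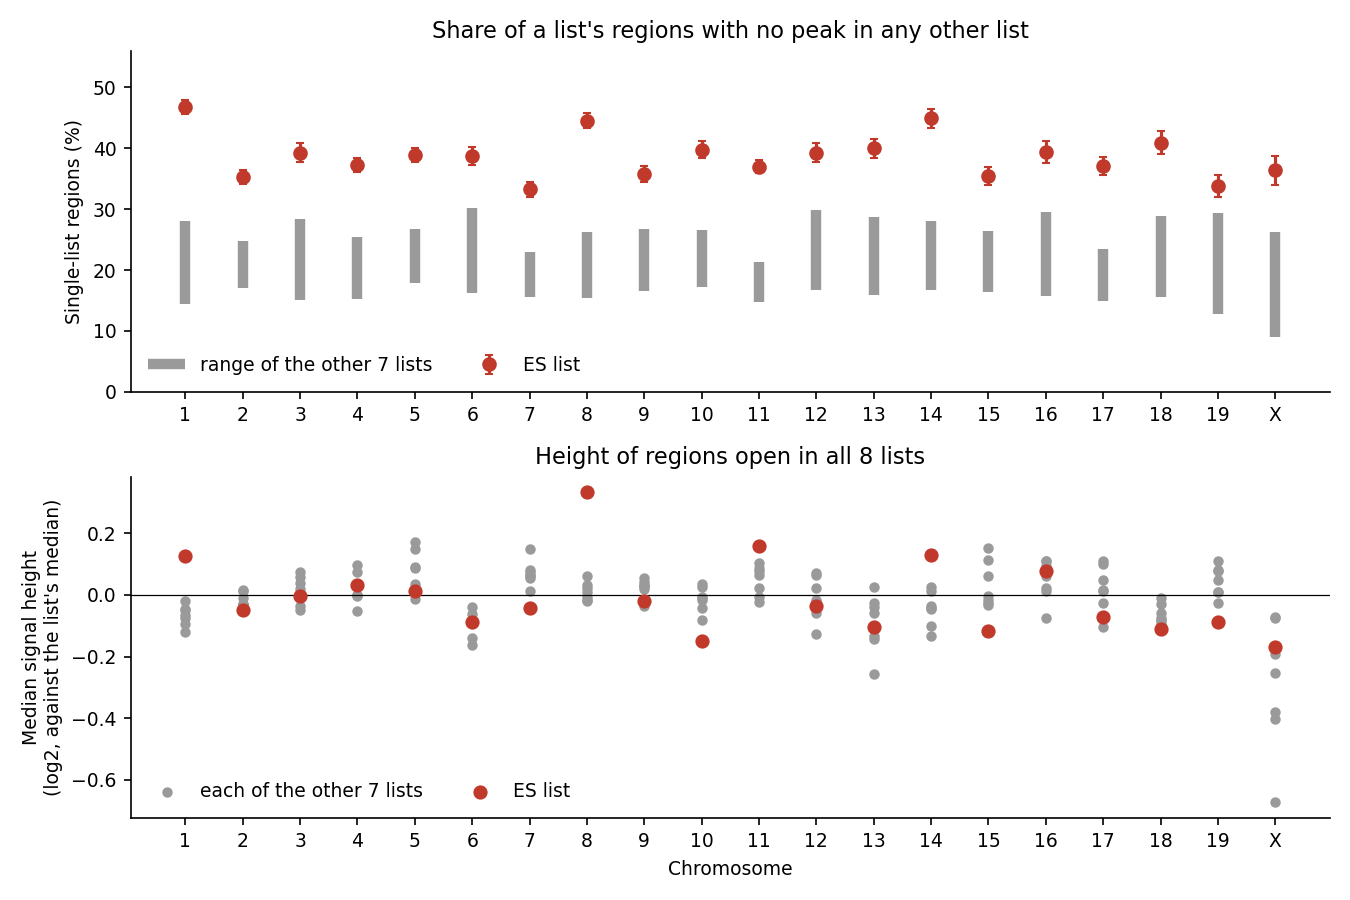
The upper panel gives, by chromosome, the percentage of ES regions that were ES-only (points with Wilson 95% intervals) and the range of the single-list percentage in the other 7 lists (grey bars), and the lower panel gives the median log2 signal height of regions open in all 8 lists relative to each list's median. Chromosomes 1, 8 and 14 lead the ES points in the upper panel, and in the lower panel ES cells lie above all other lists on chromosomes 1, 8, 11 and 14, most on chromosome 8 at 0.33.

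These 4 chromosomes were picked by their ES height, after the values were seen, so what they hold of the strongest ES peaks describes the size of that difference and adds no support to it. Chromosomes 1, 8, 11 and 14 held 26.9% of all ES peaks and 52.0% of the top 1% (502 of 965). In the other lists they held 23.1 to 23.7% of all peaks and 22.7 to 25.9% of the top 1%. Of the ES-only regions in the top 10% of heights, 79 of 163 lay on these chromosomes, 34 of them on chromosome 8. They also held 10 of the 20 strongest ES-only regions, 17 of the 20 strongest remaining ones and 33 of the 52 windows with 12 or more ES-only regions. For comparison, these chromosomes held 29.8% of all ES-only regions, 25.3% of all remaining ones and 37.3% of dense windows. Mouse ES lines are known to gain whole chromosomes in culture, and DNA copy number was not tested. Without the 4, the ES-only share was 37.3% and dense windows held 32.1% of ES-only regions.

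H3K27ac, a histone acetylation found at promoters and enhancers in use, was measured in E13.5 preSertoli cells only, so it describes what these sites look like in a cell type that lacks the peak. H3K27ac domains overlapped 6.56% of ES-only regions (2377; Wilson 6.31 to 6.82) and 30.7% of remaining ES regions (17562; 30.4 to 31.1). Regions shared with 1 other list stood at 10.5% and those open in all 8 lists at 55.0%. For ES-only regions the share was 7.28% in the lowest 10% of heights, 4.65% between 70 and 80%, 6.09% between 80 and 90% and 4.29% in the highest 10%, which holds 163 of them. For remaining regions it was 14.7% in the lowest and 80.7% in the highest. ES-only regions were chosen as lacking a preSertoli peak, so a lower share is built into this comparison.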

How the data were processed

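DNase-seq peaks of 8 libraries and 1 list of H3K27ac domains were used; the RNA-seq table and the input libraries were not used here. The submitters' processing notes name BWA 0.6.1-r104, SAMtools and bedtools for DNase-seq, and CASAVA 1.8.2 with Bowtie and SICER for ChIP-seq, all on mm9. The sources used here give neither the peak caller nor its threshold, and read depth is unknown. The lists deposited by the authors have no header; from the values, column 5 is the authors' score (up to 1000), column 7 the authors' signal height and column 8 the authors' −log10 p (1.3 to 16). Each was used only within its list. The H3K27ac list deposited by the authors gives 28586 domains without a value, and whether its 2 libraries were pooled is not stated.

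Peaks were merged (checked with bedtools 2.31.1 and tested on simulated data). A region took the height of its strongest peak, the summed width of its peaks of that list and the 100 kb window of its midpoint. Positions are 1-based. Named were the 10 strongest ES-only regions, the 5 densest windows (ties by fewest remaining regions) and the 3 longest runs; strings, chromosomes and other examples were picked after their values were seen. The part studied and these rules were chosen with earlier results of these data known. Counts of genes at ES-only regions were planned and not made, since no mm9 annotation was used. Alternatives changed the peak set, the joining distance, the lists, the ranking column and the windows.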

Additional observations from a re-analysis of the deposited data

How the results depend on the processing

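In each alternative for which heights or widths were computed, ES-only regions had the lower percentile and width, but sizes depended on the peak set. With equal numbers of peaks there were 18453 ES-only regions (30.4% of ES regions), the median percentile differed from remaining regions by -18.7, the median width by -208 bp, and dense windows held 14.9%. With the upper 50% of each list the values were 15892, 33.6%, -15.7, -273 bp and 12.8%. With a −log10 p of 3 or more they were 12118, 33.6%, -12.7, -334 bp and 7.93%. These cuts also removed weak peaks of other lists, so a region could become ES-only through them. Of the ES-only regions after each cut, 16538, 10371 and 6132, in the same order, were also ES-only with all peaks. By the main definition, 21.9% of ES regions in the upper 50% of the ES list were ES-only. Percentiles stayed those of the full ES list, so after these cuts they span only its upper part. The smaller percentile differences can therefore not be compared in size with the -31.8 of all peaks. Joining peaks up to 500 bp apart gave 33.4%, -30.6, -228 bp and 20.8%, and leaving out both preSertoli lists gave 47.3%, -33.4, -219 bp and 48.3%. Leaving out 1 of the other 7 lists at a time gave 37088 to 39228 ES-only regions, shares of 39.7 to 41.9%, percentile differences of -32.4 to -32.1, width differences of -204 to -201 bp and 38.1 to 40.4% in dense windows. Asking other lists to cover 50% of the ES peak length gave 46.0%, and heights and widths were not computed for it. Without chromosomes 1, 8, 11 and 14, an alternative chosen after seeing the data, the share was 37.3% and dense windows held 32.1%. The percentile difference was -30.0 with mean percentiles and -6.80 within width bins. The width difference was -356 bp for merged regions and -70.5 bp within height bins. Windows of 8 or more held 12.8%, and the fullest 1 Mb window held 77 ES-only regions. No paired analysis was possible because each DNase-seq group is 1 library and no test was made. Peak lists carry no read counts, so depth limits which weak peaks were listed by an unknown amount.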
